A study of Mus musculus with 8 samples.

Results

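Transcripts of 30 genes of cholesterol synthesis and regulation were followed through the cell classes of the mouse hippocampus, out of 30211 genes with a row in the count tables. The 30 genes were taken by symbol for their known roles, and all of them had a row. They comprised 7 enzymes of the steps before squalene, the branch enzyme Ggps1 and 11 enzymes of the steps from squalene to cholesterol. Fdft1, which makes squalene, was counted among the 11. The others were 5 genes of sterol sensing and 6 genes of transport, storage, removal and oxysterol sensing. Single-nucleus RNA sequencing (sn-RNAseq) on the 10X Genomics platform gave 1 library per C57BL/6 mouse. The groups were 3 WT and 3 GKO mice (GSAP -/-) aged 7 mo, 1 J20;WT mouse and 1 J20;GKO mouse aged 6 mo. GSAP is the gamma-secretase activating protein, and GKO mice lack it in all tissues from birth, since the floxed gene was cut with a CMV-Cre driver. J20 mice carry a human APP transgene bearing Swedish and Indiana mutations, expressed from the promoter of human PDGFB, so that the transgene is driven mainly in neurons. The J20 arm therefore holds a single mouse per genotype, which is 1 month younger than the others.

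Cholesterol is made from acetyl units. Hmgcs1, Mvk, Pmvk, Mvd and Idi1 build the isoprene units, Fdps and Fdft1 join them to squalene, and Sqle and Lss close the first sterol ring. Cyp51, Tm7sf2, Msmo1, Nsdhl, Hsd17b7, Ebp, Sc5d and Dhcr7 then turn lanosterol into cholesterol. The transcription factors encoded by Srebf2 and Srebf1 switch on these genes when sterols are low, with Scap as their escort and the Insig proteins as the anchors that hold them back. The brain makes its own cholesterol, since lipoproteins of the blood do not cross into it. Astrocytes supply neurons, oligodendrocytes use large amounts for myelin, and neurons clear the excess through Cyp46a1, the cholesterol 24-hydroxylase.

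The sterol regulatory element, to which the SREBF proteins bind, was looked for in the promoters as an anchor for the genes described next. RefSeq promoter windows (GRCm38.p6, 250 bases before to 50 after the start) were found for 26 of the 30 genes. The letters TCACNCCA, on either strand, stood in the windows of 3 of these 26, Hmgcs1, Msmo1 and Srebf2 (11.5%), and in 4.97% of the windows of 27025 genes. The longer form TCACNCCAC, which contains the first, was in the window of Hmgcs1 alone among the 26, and in 1.44% of all windows. CCAAT was in 22 of the 26 (84.6%, against 41.1% of all genes), and GGGCGG in 22 (84.6%, against 38.2%). A match says only that the letters are there. Hmgcs1, Msmo1 and Srebf2 were called higher in astrocytes, but so were 20 of the 29 genes tested, so the call does not set them apart. The 3 stretches that carry TCACNCCA are shown with the match in capitals, 5′ to 3′ on the strand of the gene. They lie at chr13:119690184-119690303 (plus strand), chr8:64733666-64733785 (minus strand) and chr15:82147077-82147196 (plus strand), each in the promoter region upstream of its RefSeq start. By the GENCODE gene models the stretch of Msmo1 lies inside the gene, which starts at base 64733792. The end of the Srebf2 stretch also lies inside its gene, which starts at base 82147181.
Hmgcs1: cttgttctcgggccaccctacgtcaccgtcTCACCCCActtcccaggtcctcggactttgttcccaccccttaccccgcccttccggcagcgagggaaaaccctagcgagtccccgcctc
Msmo1: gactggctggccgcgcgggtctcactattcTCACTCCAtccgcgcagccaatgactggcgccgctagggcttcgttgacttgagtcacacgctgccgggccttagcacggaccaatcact
Srebf2: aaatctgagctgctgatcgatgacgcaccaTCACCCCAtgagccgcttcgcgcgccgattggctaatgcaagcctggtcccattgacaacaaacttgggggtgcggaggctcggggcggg

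The 8 libraries held 32041 nuclei after filtering, with 21020159 to 43310978 UMIs (unique molecular identifiers, each a counted RNA molecule) per library and medians of 4579 to 6438.5 per nucleus. Marker genes that are not among the 30 placed 28563 nuclei, among them 171 Cajal-Retzius and 107 choroid nuclei that were not analysed further. The 7 classes used here held 13787 excitatory neurons, 1514 inhibitory neurons, 2620 astrocytes, 7051 oligodendrocytes, 884 oligodendrocyte precursor cells (OPCs), 2082 microglia and 347 vascular nuclei. Markers kept out of the gate were highest in the classes they name, such as Slc1a2 at 7398 CPM in astrocytes and between 1.05% and 4.83% of that level in the other classes. Those of OPCs were less specific. In pooled UMIs Sox10 was at 533 CPM in OPCs and 425 CPM in oligodendrocytes. Pcdh15 was at 3578 CPM in OPCs, 730 CPM in inhibitory neurons and 397 CPM in excitatory neurons. CPM scales the UMIs of a gene to the same fixed total of UMIs in each class and library. Gsap over all nuclei was at 22.5, 23.0 and 22.3 CPM in WT mice and at 19.8, 21.8 and 22.0 CPM in mice labelled GKO. It was at 19.9 CPM in the J20;WT library and 21.2 CPM in the J20;GKO library, so Gsap reads over the whole gene did not separate the genotypes, and every GKO direction rests on the label. The first WT and the first GKO library form batch 1 by the date in the deposited file names, the J20;WT library is alone in batch 3, and the 5 others form batch 2. Fdps had 37 UMIs in all nuclei and shares its strand and place with the gene model Gm43738, so it entered no test. Tm7sf2 overlaps Vps51 on the same strand, and its reads could belong to either.

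Astrocytes stood apart from all other classes in the synthesis genes. Each class was compared with the mean of the 6 others over the 8 mice (edgeR quasi-likelihood test, mouse as a block), and a call needed an adjusted p below 0.05 together with a log2 fold change beyond 1 in either direction. Of the 29 genes tested, 20 were higher in astrocytes and 0 were lower, where 15.7% of all 14902 genes tested were called higher and 12.8% lower. The median log2 fold change of the 29 genes was 1.64, and that of all genes was -0.02. Among the pathway enzymes 15 of 17 were higher, 5 of 6 in the first group and 10 of 11 from Fdft1 on. The summed level of the 18 enzymes averaged 1428 CPM in astrocytes, 514 in oligodendrocytes, 385 in inhibitory neurons, 352 in excitatory neurons, 352 in vascular nuclei, 341 in OPCs and 211 in microglia. Without Msmo1, which takes a large part of the sum, it was 860 CPM in astrocytes and 419 in oligodendrocytes, the next class.

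**Figure D1:**
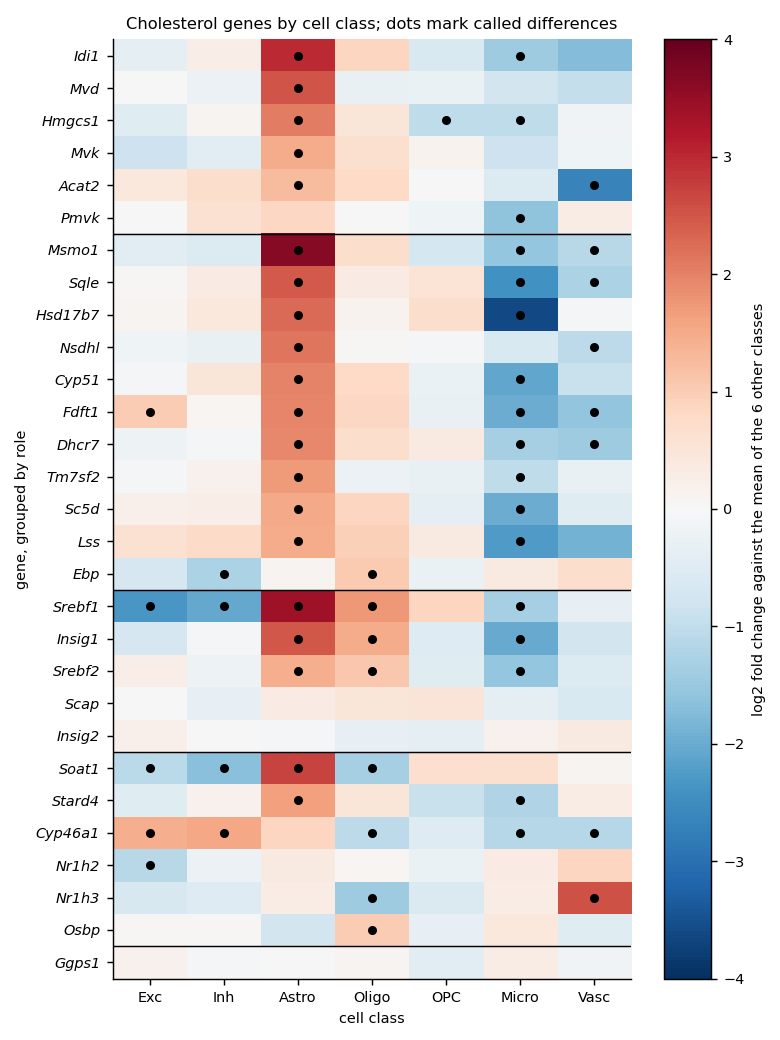
Log2 fold change of each tested gene (rows, grouped by role and separated by lines) in each cell class (columns) against the mean of the 6 other classes, over 8 libraries. Dots mark called differences: 20 genes are higher in astrocytes and 17 are lower in microglia.

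Among the enzymes after squalene, Msmo1 (ENSMUSG00000031604), the sterol C4-methyl oxidase, was at 364 CPM in the lowest astrocyte library, 529 at the median and 1121 in the highest. The highest value of any library in any other class was 151 CPM, so the ranges did not meet. Its log2 fold change in astrocytes was 3.64 ± 0.06 (standard error, adjusted p = 1.22e-55). Sqle, squalene epoxidase and a rate-limiting step, was at 71.2 to 132 CPM with a median of 98.4, against at most 47.9 in any other class, and its log2 fold change was 2.45 ± 0.11. Cyp51, the lanosterol demethylase, was at 79.3 to 149 CPM (median 119), and Fdft1, squalene synthase, at 96.1 to 144 CPM (median 105). Their log2 fold changes were 1.97 ± 0.09 and 1.95 ± 0.09. Dhcr7, which makes cholesterol from its last precursor, was at 39.9 to 72.6 CPM, above every library of every other class. Hsd17b7, Nsdhl, Tm7sf2, Sc5d and Lss were also called, with log2 fold changes of 1.52 to 2.26 for the first 4 and 1.499 for Lss. Lss was at 2.46 without WT 1, the library that held both vascular UMIs of this gene (2 in all). Ebp, the sterol isomerase, was the exception, at 0.10 ± 0.14.

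Of the enzymes before squalene, Idi1, the isopentenyl diphosphate isomerase, was at 31.6 to 65.8 CPM in astrocytes and at most 26.7 in any other class, with a log2 fold change of 2.99 ± 0.16. Hmgcs1, which makes the substrate of the rate-limiting reductase, was at 59.0 to 147 CPM (median 102), with a log2 fold change of 2.06 ± 0.11. Mvd, Mvk and Acat2 were called at 2.51, 1.49 and 1.26. Pmvk missed the fold limit at 0.84, and the branch enzyme Ggps1, which leads to protein prenylation and not to sterols, was at 0.01.

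The sensing genes were split. Srebf1 (ENSMUSG00000020538) was at 128 to 203 CPM in astrocytes (median 156), above the 99.4 CPM of the highest library elsewhere, with a log2 fold change of 3.39 ± 0.10. Its partner Srebf2 was at 120 to 216 CPM (median 189), and Insig1, itself a target of the SREBF factors, was at 44.4 to 134 CPM (median 79.1). They were called at 1.46 ± 0.07 and 2.50 ± 0.12. Scap and Insig2 were not called, at 0.32 and -0.05. Soat1, which esterifies cholesterol for storage, was at 175 to 227 CPM in astrocytes (median 199) and at most 131 in any library of another class, and its log2 fold change was 2.71 ± 0.08. Stard4, a sterol carrier, was called at 1.64 ± 0.25 on low levels of 3.69 to 26.9 CPM. Osbp, Cyp46a1, Nr1h2 and Nr1h3 were not called. For Idi1, Fdft1, Sqle, Cyp51, Msmo1, Dhcr7, Srebf1 and Soat1, every astrocyte library was above every library of every other class. The share of all genes for which this held was not counted. Leaving out each library in turn left 20 genes called.

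**Figure D2:**
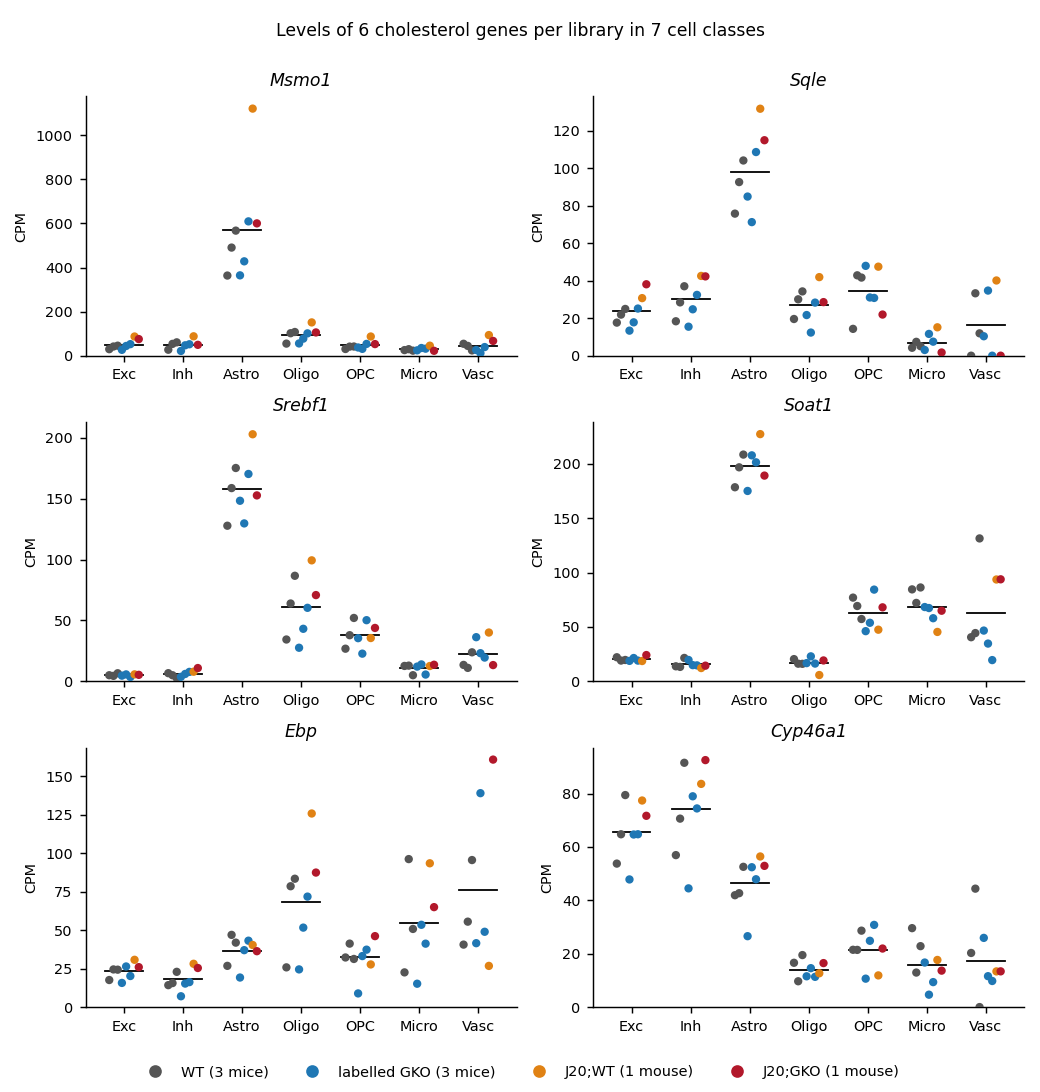
CPM of 6 genes (panels) in 7 cell classes (Exc, excitatory; Inh, inhibitory; Astro, astrocyte; Oligo, oligodendrocyte; Micro, microglia; Vasc, vascular), 1 point per library, with a line at the mean of 8 libraries. Msmo1, Sqle, Srebf1 and Soat1 are highest in every astrocyte library, Cyp46a1 averages 65.5 CPM in excitatory and 74.2 CPM in inhibitory neurons, and Ebp spreads widely in oligodendrocytes, microglia and vascular nuclei.

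Microglia, the resident phagocytes, had the lowest levels of the pathway. Of the 29 genes, 17 were lower and 0 were higher, where 22.6% of all genes were called lower and 16.7% higher. The median log2 fold change of the 29 was -1.14, and that of all genes was -0.11. Of the 17 enzymes 12 were lower, 9 of the 11 from Fdft1 on. Cyp51 was at 3.42 to 18.7 CPM (median 12.7), with a log2 fold change of -2.08 ± 0.19. Fdft1 was at 3.70 to 21.1 CPM, Sqle at 1.71 to 15.1 CPM and Sc5d at 5.62 to 22.2 CPM, with log2 fold changes of -1.98, -2.41 and -1.99. Srebf2 was at 20.9 to 44.4 CPM (median 36.5), below its lowest astrocyte library, at -1.56 ± 0.12, and Insig1 had 27 UMIs in all, at -2.01 ± 0.29. Msmo1, Pmvk, Idi1, Dhcr7, Srebf1, Stard4, Cyp46a1, Lss, Tm7sf2 and Hmgcs1 were called between -2.26 and -1.01, and Hsd17b7 was called on 3 UMIs, too few for a fold. Ebp (54.7 CPM), Osbp (52.4 CPM), Insig2 (67.9 CPM), Soat1 (68.4 CPM), Nr1h2 (25.2 CPM) and Ggps1 (145 CPM) were among those not called. Reads of the astrocyte genes Slc1a2 and Gfap in microglia were at 1.15% and 2.84% of the astrocyte level. Msmo1 was at 5.20%, and the median over the 29 genes other than Fdps was 19.5%. The part of astrocyte RNA in the microglial values was not tested.

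Some microglial calls did not hold without 1 library. Lss, at -2.26 on 7 UMIs in the full set, was at -1.31 without WT 1 and not called. Tm7sf2 was at -0.94 without WT 1 and not called. Hmgcs1 lost its call without WT 2, GKO 3 or J20;GKO (-0.85 to -0.99), Stard4 without WT 2 or GKO 1 (-1.09 and -1.11), and Tm7sf2 also without WT 2 or GKO 1 (-0.89 and -0.94). The count stayed between 14 and 17.

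Oligodendrocytes, the myelin-forming cells, were higher in 5 genes and lower in 3, where 11.9% of all genes were called higher and 18.6% lower. The median log2 fold change of the 29 genes was 0.50, and 15 of the 17 enzymes were above 0, but Ebp alone among the enzymes was called. Srebf1 was at 27.6 to 99.4 CPM (median 62.2), at 1.74 ± 0.12, and Insig1 at 29.1 to 53.3 CPM (median 41.9), at 1.499 ± 0.13. Srebf2 was at 111 to 175 CPM, at 1.09 ± 0.07, Osbp, a sterol exchanger at membrane contacts, at 50.8 to 74.1 CPM, at 1.01 ± 0.08, and Ebp at 24.5 to 126 CPM, at 1.05 ± 0.12. Soat1 (-1.33), Nr1h3 (-1.42) and Cyp46a1 (-1.06) were lower. Ebp lost its call without WT 3, GKO 3 or J20;WT (0.95 to 1.00), Osbp without GKO 1, GKO 2, GKO 3 or J20;GKO (0.94 to 1.00), and Cyp46a1 without WT 2 (-0.96). Without GKO 3 the higher count was 3. With RLE normalization or DESeq2 it was 2, since Ebp, Srebf2 and Osbp were then at 0.89 to 0.97.

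Young oligodendrocytes, marked by Enpp6 (at least 2 UMIs) and at least 2 other markers of newly formed cells, were rare, with 61 nuclei in all and 3 to 17 per library. Only 1 library had 10 or more, so their pooled UMIs are given without a test, with exact Poisson 95% intervals that cover counting error only. The 18 enzymes summed to 846 CPM (740 to 962) in young and 446 CPM (434 to 458) in the 5489 mature nuclei. Msmo1 was at 219 CPM (167 to 282, from 60 UMIs) against 76.5 CPM (71.8 to 81.5). Sqle was at 65.6 CPM (38.9 to 104) against 22.4 CPM, Cyp51 at 94.8 CPM (61.9 to 139) against 47.4 CPM, and Mvd at 18.2 CPM (5.92 to 42.5, from 5 UMIs) against 4.55 CPM. These 4 genes were higher with intervals that did not meet, 0 were lower, and for the other 26 the intervals overlapped. The share of all genes with intervals apart was not counted. Young nuclei were deeper than mature ones in every library, with medians of 2380.5 to 7664 UMIs against 1790 to 2546.5, and the part of depth was not tested. The 12 astrocyte gate markers summed to 394 CPM in young and 391 CPM in mature nuclei, against 21950 CPM in astrocytes. Leaving out each library gave summed enzyme levels of 787 to 895 CPM in the young nuclei. Of the 61 young nuclei 47 remained without called doublets, against 5469 of the 5489 mature nuclei, and a summed level without doublets is not given. The stricter gate kept 29 young nuclei, with a summed level inside the interval given above.

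In excitatory neurons 2 genes were higher and 3 lower (18.2% and 12.8% of all genes), and in inhibitory neurons 1 was higher and 3 were lower (16.9% and 12.7% of all genes). Cyp46a1 (ENSMUSG00000021259) was at 47.8 to 79.5 CPM in excitatory neurons (median 64.8), and at 44.5 to 92.6 CPM in inhibitory neurons (median 76.7). Its log2 fold changes were 1.46 ± 0.08 and 1.54 ± 0.09, and the ranges of these neighbours overlapped. Astrocytes followed at 26.6 to 56.4 CPM, and the remaining classes had means of 14.1 to 21.5 CPM. Srebf1 was near the bottom of its range in neurons, at 3.57 to 6.69 CPM in excitatory and 2.69 to 10.95 CPM in inhibitory nuclei, with log2 fold changes of -2.33 ± 0.17 and -2.04 ± 0.19. Soat1 was lower in both, at -1.09 ± 0.09 and -1.67 ± 0.12. Ebp was lower in inhibitory neurons (-1.28 ± 0.15) and Nr1h2, the oxysterol receptor LXR beta, in excitatory neurons (-1.12 ± 0.10). Fdft1 was called higher in excitatory neurons at 1.01 ± 0.08, at 50.9 to 73.9 CPM, but not without GKO 2 (0.93) or without J20;GKO (0.99), which left 1 gene called higher. Soat1 was not called in excitatory neurons without WT 3 (-0.93). In inhibitory neurons a further gene was called higher without WT 1, for a count of 2.

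OPCs had 0 genes higher and 1 lower (14.1% and 8.11% of all genes). That 1 gene was Hmgcs1, at 3.96 to 23.1 CPM and -1.03 ± 0.21, and it was not called without WT 1 (-0.98) or without J20;WT (-0.92). Without J20;GKO, 1 gene was called higher. Vascular nuclei, 51 endothelial and 296 mural or fibroblast, had 1 gene higher and 7 lower (13.8% and 14.0% of all genes). Nr1h3, the receptor LXR alpha, was higher there, at 11.9 to 74.4 CPM (median 37.5) from 35 UMIs, with a log2 fold change of 2.56 ± 0.35. Fdft1, Dhcr7, Sqle, Cyp46a1, Msmo1, Nsdhl and Acat2 were lower, on 36 UMIs or fewer each, and Acat2 on 2 UMIs, too few for a fold. Nsdhl was called in the full set at -1.05 but not without WT 1, WT 2, GKO 1, GKO 3, J20;WT or J20;GKO (-0.72 to -1.11), Msmo1 not without GKO 2 (-0.99) and Sqle not without GKO 3 (-1.05). Astrocyte gate markers summed to 3850 to 7970 CPM in vascular nuclei, and their part in these values was not tested.

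A further 28 sterol genes, fixed by function, were read in the same tests, and 25 of them were tested. The shares of all genes called in each class are those given above, such as 15.7% higher and 12.8% lower in astrocytes. Astrocytes had 5 higher and 5 lower, with Cyp7b1, an oxysterol hydroxylase, at 2.99 and the efflux pump Abca1 at 1.58 among the first. The related pump Abcg1 was lower there at -3.74. Microglia had 9 higher and 4 lower. Mylip, which marks lipoprotein receptors for degradation, was at 4.85, Cyp27a1, sterol 27-hydroxylase, at 3.40 and Abca1 at 2.41. Oligodendrocytes had 11 higher and 6 lower, with Cyp39a1 at 3.78, Cyp27a1 at 3.65, Vldlr at 2.70 and Abcg1 at 2.68. Excitatory neurons had 4 higher and 9 lower, and inhibitory neurons 2 and 6, with Abcg4 higher in both (1.53 and 2.14) and Abca1 lower in both (-3.24 and -3.00). OPCs had 5 higher and 1 lower, and vascular nuclei 4 and 4.

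Within excitatory neurons, calls were lower in dentate granule nuclei and higher in CA3. Each region was compared with the mean of the other 2 in the same way, over 5612 dentate granule, 2990 CA1 and 1091 CA3 nuclei. In dentate granule nuclei 6 of 29 genes were lower and 0 higher (9.43% and 6.26% of all 15026 genes), in CA3 6 were higher and 0 lower (6.34% and 4.49%), and in CA1 0 were higher and 0 lower (5.66% and 4.29%), with 0 called by DESeq2. In CA1, 7 of the 29 were at an unadjusted p under 0.05 in edgeR, and these also passed the adjusted threshold but missed the fold limit, at -0.58 (Nsdhl) to 0.49 (Cyp51). The summed enzyme level was lowest in dentate granule nuclei and highest in CA3 in 7 of the libraries, but in J20;GKO it was 537 CPM in dentate granule nuclei, 373 in CA1 and 447 in CA3. Without Msmo1 the means were 267, 271 and 317 CPM. Hmgcs1 was at 6.46 to 26.9 CPM in dentate granule nuclei (median 8.14), 11.9 to 25.9 CPM in CA1 (median 21.0) and 25.5 to 39.0 CPM in CA3. Its log2 fold change was -1.38 ± 0.13 in dentate granule nuclei and 1.22 ± 0.12 in CA3. Stard4 was at -1.65 ± 0.31 and 1.63 ± 0.29, on medians of 0.55, 1.57 and 3.57 CPM. Mvd was at -1.17 and 1.29, Hsd17b7 at -1.16 and 1.19 and Msmo1 at -1.13 ± 0.19 and 1.13 ± 0.19. Nr1h2 was lower in dentate granule nuclei alone (-1.21 ± 0.14), and Sqle was higher in CA3 alone at 1.01 ± 0.20. The call of Sqle was lost without WT 1, WT 2, WT 3, GKO 1 or GKO 2 (0.91 to 0.98), and no other region call was lost when 1 library was left out. Of the further sterol genes 24 were tested by region. Cyp7b1 was higher and Osbpl1a lower in dentate granule nuclei (1.64 and -1.62), Mylip was higher and Cyp7b1 and Stard5 were lower in CA1 (1.61, -1.50 and -1.81), and Stard5 and Osbpl1a were higher in CA3 (1.88 and 1.10).

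In dentate granule nuclei of both J20 mice many of these genes were higher, and in CA1 and CA3 nuclei fewer were. The share of all genes with both J20 libraries above the 6 others was also larger in dentate granule nuclei (13.7%) than in CA1 (8.21%) or CA3 (6.27%). The pattern was noticed after the values were seen, so it is described without a test. Msmo1 in dentate granule nuclei was at 16.8 to 21.8 CPM in the 6 WT and GKO libraries (17.7, 19.6 and 17.0 in WT; 16.8, 21.8 and 20.0 in GKO), 47.6 CPM in J20;WT (Poisson interval 41.5 to 54.3) and 91.0 CPM in J20;GKO (81.2 to 102). Both J20 libraries were above all 6 others, at 2.53 and 4.84 times their mean. Sqle was at 5.92 to 10.7 CPM in the 6, 21.4 CPM in J20;WT (17.4 to 26.1) and 47.1 CPM in J20;GKO (40.1 to 55.0). Hmgcs1 was at 6.46 to 8.54 CPM, 13.3 CPM and 26.9 CPM in the same order, and Idi1 at 2.13 to 2.95 CPM, 5.89 CPM and 11.1 CPM. Srebf2, the factor that drives the pathway, was at 44.5 to 56.1 CPM in the 6, 88.2 CPM in J20;WT and 127 CPM in J20;GKO. Nsdhl was at 10.5 to 15.98, 19.0 and 42.4 CPM, and Cyp51 at 17.0 to 23.8, 25.1 and 47.7 CPM. These 7 were chosen after the values were seen, and J20;GKO was the higher of the J20 libraries in each. J20;WT was instead the highest of all 8 libraries for Ebp (42.8 CPM, J20;GKO 39.2 CPM), Pmvk (22.05 and 10.8 CPM) and Mvk (6.11 and 5.27 CPM). They were 3 of the 28 genes with at least 50 UMIs, where J20;WT was highest for 25.4% of all genes.

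In dentate granule nuclei 14 of the 28 genes with at least 50 UMIs had both J20 libraries above the 6 others, where 13.7% of all genes did. The J20;GKO library was the highest of all 8 for 19 of the 28, where 21.5% of all genes were. Among the enzymes these counts were 11 and 14 of 17. In CA1 both J20 libraries were above the 6 others for 10 of 29 genes (8.21% of all genes) and in CA3 for 6 of 29 (6.27%). They were so in inhibitory neurons for 4 of 29 (7.22%), in astrocytes for 3 of 29 (5.35%) and in oligodendrocytes for 3 of 28 (4.93%). J20;WT was the highest of all 8 for 12 of 29 genes in CA1 (23.4% of all genes) and 11 of 29 in CA3 (20.4%). J20;GKO was the highest for 10 in CA1 (14.4%) and 7 in CA3 (13.3%). Scap (50.2 and 47.1 CPM against 46.0 to 55.3), Soat1 and Insig2 did not stand above the 6 in dentate granule nuclei. The summed enzyme level there was 209 to 267 CPM in the 6 libraries, 370 CPM in J20;WT and 537 CPM in J20;GKO. In CA1 it was 230 to 342 CPM in the 6, 406 CPM in J20;WT and 373 CPM in J20;GKO. CA3 was at 291 to 410, 498 and 447 CPM, so both J20 libraries were above the 6 in all 3 regions. Of these regions, J20;GKO was the higher of the J20 pair in dentate granule nuclei only. With the stricter gate, Msmo1 in dentate granule nuclei was at 47.5 and 94.7 CPM in the J20 libraries and Sqle at 21.9 and 44.5 CPM.

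**Figure D3:**
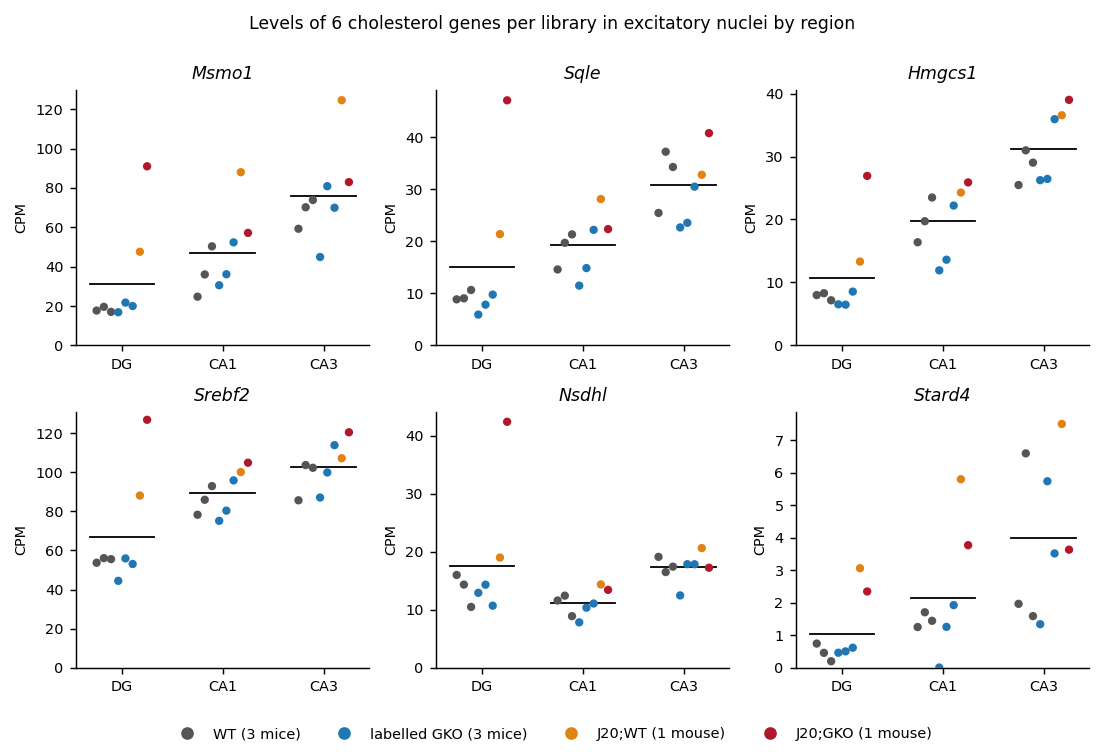
CPM of 6 genes (panels) in dentate granule (DG), CA1 and CA3 nuclei, 1 point per library, with a line at the mean of 8 libraries. In dentate granule nuclei Msmo1, Sqle, Hmgcs1, Srebf2 and Nsdhl are highest in J20;GKO and next in J20;WT, while the 6 WT and GKO libraries lie close together, as at 16.8 to 21.8 CPM for Msmo1.

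Other genes moved in the same nuclei, chosen after their values were seen. Npy, a neuropeptide, was at 1.97 to 3.62 CPM in the 6 libraries, 7.64 CPM in J20;WT and 644 CPM in J20;GKO. Penk, which encodes enkephalins, was at 2.90 to 5.01, 26.6 and 79.9 CPM. Calb1, the calcium-binding calbindin of granule cells, was at 117 to 148 CPM in the 6, 67.2 CPM in J20;WT and 49.8 CPM in J20;GKO. The astrocyte gate markers in dentate granule nuclei summed to 702 to 967 CPM in the 6 libraries, 548 CPM in J20;WT and 374 CPM in J20;GKO, below the others. The inhibitory neuron markers summed to 1333 to 1629, 1633 and 777 CPM and the CA1 markers to 118 to 262, 148 and 93.9 CPM, while Slc1a2 was at 117 to 143, 139 and 170 CPM. The 6 CA3 gate markers summed to 520 to 610, 654 and 681 CPM, and the 8 dentate granule markers to 3870 to 5147, 4216 and 3624 CPM. The J20;WT and J20;GKO libraries held 705 and 369 dentate granule nuclei. The J20;GKO library shares batch 2 with WT 2, WT 3, GKO 2 and GKO 3, which were at 17.0 to 21.8 CPM for Msmo1 in these nuclei, while J20;WT is alone in its batch. Transgene, age and individual mouse cannot be told apart here, nor can batch for J20;WT. The J20 mice also differed in Xist, which marks female cells, at 3.00 CPM in J20;WT and 2410 CPM in J20;GKO, where the 6 others ranged from 1.68 to 2259 CPM.

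Whether loss of GSAP changes these genes was asked in the 3 WT and 3 GKO mice, class by class, with the limits of the study (adjusted p below 0.05 together with a log2 fold change beyond 0.3 in either direction, edgeR). The fits tested 29 of the 30 genes in both neuron classes, in astrocytes and over all nuclei, 27 in oligodendrocytes, 18 in OPCs, 9 in microglia and 2 in vascular nuclei. None of those tested was called, where 0.0% of all genes were called in each. At an unadjusted p under 0.05 there were 198 genes in excitatory neurons, 158 in inhibitory neurons, 201 in astrocytes, 171 in oligodendrocytes, 212 in OPCs, 228 in microglia, 41 in vascular nuclei and 254 over all nuclei. DESeq2 also called 0 genes in each. With the replicate number as a block, 2 genes were called in astrocytes, 7 in OPCs and 1 over all nuclei, and none of the tested members of the 30 was among them. Insig2 in oligodendrocytes was the only one of the 30 with an unadjusted p under 0.05. It was at 42.1, 42.5 and 46.4 CPM in WT and 34.3, 34.8 and 28.9 CPM in GKO mice. Its log2 fold change was -0.38 ± 0.15 (edgeR, unadjusted p = 0.0306, adjusted p = 1.00). It was at 67.2 CPM in J20;WT and 42.9 CPM in J20;GKO.

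The fold changes of the 29 genes tested in astrocytes ran from -0.63 (Acat2) to 0.48 (Lss), with a median of -0.03 and a median standard error of 0.23. In excitatory neurons they ran from -0.30 (Insig1) to 0.32 (Mvk), with a median standard error of 0.17. In oligodendrocytes they ran from -0.47 (Hsd17b7) to 0.56 (Mvd) over 27 genes, with a median of -0.14 and a median standard error of 0.28. The summed level of the 18 enzymes was 1287 ± 223 CPM (SD, n = 3) in WT and 1282 ± 341 CPM in GKO astrocytes, 516 ± 127 and 433 ± 94.6 CPM in oligodendrocytes, and 322 ± 40.6 and 312 ± 58.9 CPM in excitatory neurons. These differences were all smaller than the spread between mice of a group, which includes the spread between batches 1 and 2. In oligodendrocytes the sum was 337 CPM in GKO 1 and 369 in WT 1. In batch 2 it was 437 and 526 CPM in GKO against 577 and 600 in WT. In astrocytes and excitatory neurons WT and GKO libraries of batch 2 overlapped. The order within batches was not tested. With standard errors of the size given, changes of the order of the 0.3 limit were not detectable for most of the genes.

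**Figure D4:**
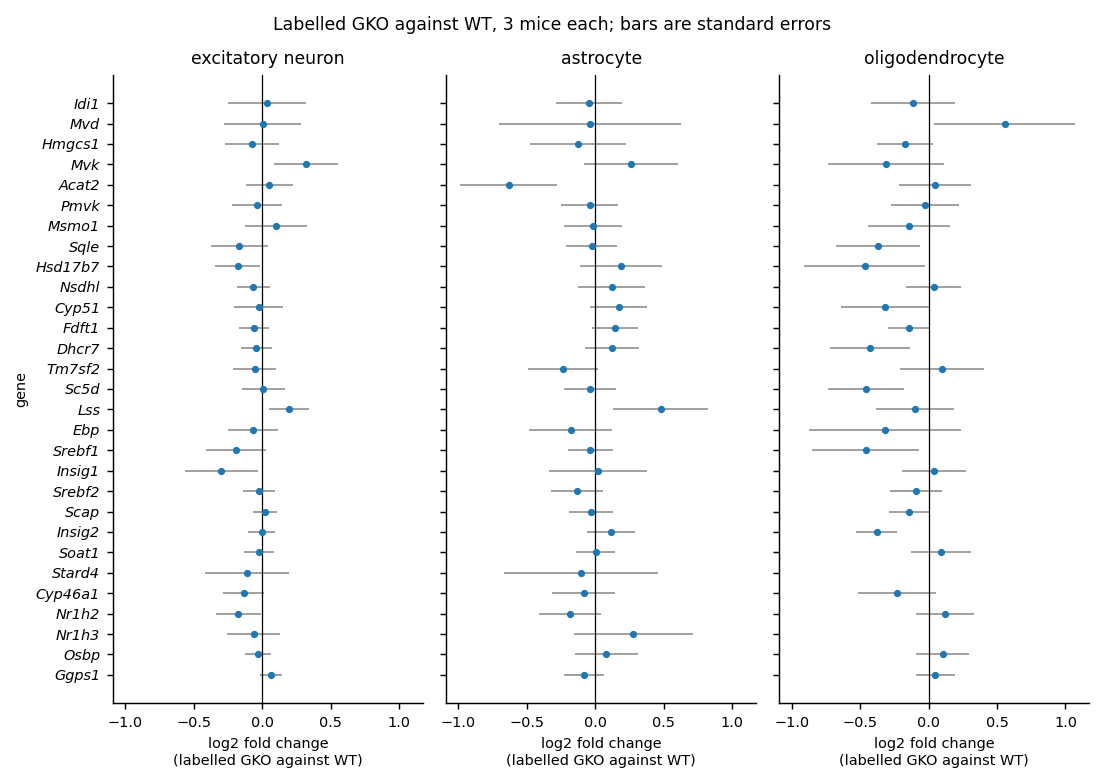
Log2 fold change of each tested gene (rows) in mice labelled GKO against WT (3 mice each) in 3 cell classes, with standard errors as bars. Values scatter on both sides of 0, from -0.63 to 0.48 in astrocytes, and none was called.

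In the J20 pair, with 1 mouse per genotype and no test, J20;GKO to J20;WT ratios were set beside the largest ratio within the 6 pairs of mice that share a genotype. Among 20 genes with at least 50 UMIs in astrocytes, 17 were lower in J20;GKO and 3 higher, with a median log2 ratio of -0.27, where 54.9% of all genes were lower and their median was -0.05. Msmo1 was at 1121 CPM (1046 to 1199) in J20;WT and 600 CPM (543 to 662) in J20;GKO, and the ratio, -0.90 on the log2 scale, was beyond the 0.74 of same-genotype mice. Insig1 was at 134 and 74.1 CPM (-0.85), within the same-genotype range of 1.12. Cyp51 (0.04) and Ggps1 (0.09) had the highest ratios there. In astrocytes the J20;WT library was the highest of all 8 for Msmo1, and J20;GKO lay inside the range of the 6 WT and GKO mice, 364 to 609 CPM. J20;WT was the highest for 17 of the 29 genes with at least 50 UMIs over the 8 astrocyte libraries (21.4% of all genes). J20;GKO was the highest for 2 of them (13.4% of all genes).

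Excitatory neurons had 12 genes lower and 17 higher in J20;GKO, with a median log2 ratio of 0.04, where 53.7% of all genes were lower. Lss (6.30 to 10.6 CPM, 0.75) and Cyp51 (34.3 to 57.3 CPM, 0.74) were highest and Tm7sf2 (-0.37) and Stard4 (-0.26) lowest, and of these Lss alone was beyond the same-genotype ratios. In inhibitory neurons 12 were lower and 8 higher (53.5% of all genes lower), with Nr1h2 (0.84) and Cyp51 (0.61) highest and Tm7sf2 (-0.91) and Msmo1 (-0.84) lowest, Tm7sf2 alone beyond the same-genotype ratios. Oligodendrocytes had 10 lower and 9 higher (58.4% of all genes lower). Nr1h2 (1.12) and Nsdhl (0.69) were highest, Pmvk (-0.78) and Insig2 (-0.65) lowest, and all but Pmvk were beyond the same-genotype ratios. In microglia only 6 genes had enough UMIs, 4 lower and 2 higher (44.4% of all genes lower). Soat1 (0.49) and Scap (0.37) were highest there, and Ebp (-0.53) and Ggps1 (-0.25) lowest. Counting unnamed genes too, 4 were beyond the same-genotype ratios in excitatory neurons, 1 in inhibitory neurons, 2 in astrocytes, 4 in oligodendrocytes and 1 in microglia. The share of all genes beyond such ratios was not counted. The J20;WT library is of another batch than all others, and the 2 mice also differed in Xist, as given above. For this pair genotype cannot be told apart from batch, individual mouse or the difference in Xist.

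More of these genes were called between batches than between genotypes. With genotype in the model, and as a comparison added after the values were seen, batch 2 (WT 2, WT 3, GKO 2, GKO 3) was set against batch 1 (WT 1, GKO 1) at the same limits. In oligodendrocytes 9 of 28 genes were higher in batch 2 and 1 lower (7.96% and 7.4% of all genes). Ebp was at 25.1 ± 0.93 CPM (SD, n = 2) in batch 1 and 71.3 ± 14.0 CPM (n = 4) in batch 2, with a log2 fold change of 1.51 ± 0.16 (adjusted p = 7.08e-07, edgeR). Srebf1 was at 31.0 ± 4.79 and 63.6 ± 17.9 CPM (1.02 ± 0.17), Msmo1 at 55.2 ± 0.52 and 97.1 ± 13.4 CPM (0.82 ± 0.13) and Cyp51 at 35.0 ± 5.92 and 65.7 ± 9.76 CPM (0.92 ± 0.14). Osbp, at -0.45, was the lower one, and it lost its call without WT 1, WT 2 or GKO 1. Mvk, Dhcr7, Sc5d, Insig1 and Srebf2 were the other higher genes, at 0.44 to 0.99. Without WT 1 the higher count was 4.

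Astrocytes had 7 of 29 higher and 0 lower in batch 2 (3.91% and 5.34% of all genes), among them Mvd at 1.49 ± 0.40, Ebp at 0.88 ± 0.20, Insig1 at 0.87 ± 0.19 and Msmo1 at 0.52 ± 0.13. Excitatory neurons had 8 higher and 0 lower (6.05% and 4.13% of all genes), with Msmo1 at 28.1 ± 2.14 and 45.9 ± 4.61 CPM (0.65 ± 0.10), and inhibitory neurons 6 and 0 (6.68% and 7.61%), with Msmo1 at 1.02 ± 0.16. Over all nuclei 9 were higher and 0 lower (6.89% and 5.32%). OPCs had 0 and 0 of 19 (1.73% and 2.83%), with 1 at an unadjusted p under 0.05, and microglia 1, Ebp, higher at 1.72 ± 0.32 (3.37% and 3.35%). With only 2 mice in batch 1 these counts were unstable. Without WT 1 the higher count was 0 in excitatory neurons, 1 in inhibitory neurons, 0 in astrocytes and 1 over all nuclei, and without GKO 1 it was 0, 0, 1 and 0. It was 4 and 1 in excitatory neurons without WT 2 and WT 3, 2 in inhibitory neurons without WT 3 or GKO 3, and 4 in astrocytes without WT 2 or GKO 3.

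The summed level of the 18 enzymes was lower in both batch 1 libraries than in all 4 WT and GKO libraries of batch 2 in each of these classes. It was 1030 and 1036 CPM against 1140 to 1671 CPM in astrocytes, 337 and 369 CPM against 437 to 600 CPM in oligodendrocytes, and 247 and 275 CPM against 330 to 361 CPM in excitatory neurons. J20;WT was at 2218, 696 and 442 CPM and J20;GKO at 1501, 569 and 472 CPM. Markers of other classes moved with the batch as well. In batch 1 excitatory nuclei, the 9 OPC markers summed to 803 to 858 CPM, against 540 to 623 CPM in batch 2, and in batch 1 astrocytes the 10 inhibitory neuron markers summed to 384 to 389 CPM, against 273 to 317 CPM. Their part in the gene levels was not tested. Without both batch 1 libraries the astrocyte class contrast still called 21 of the 29 genes higher and the microglia contrast 15 lower.

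**Figure D5:**
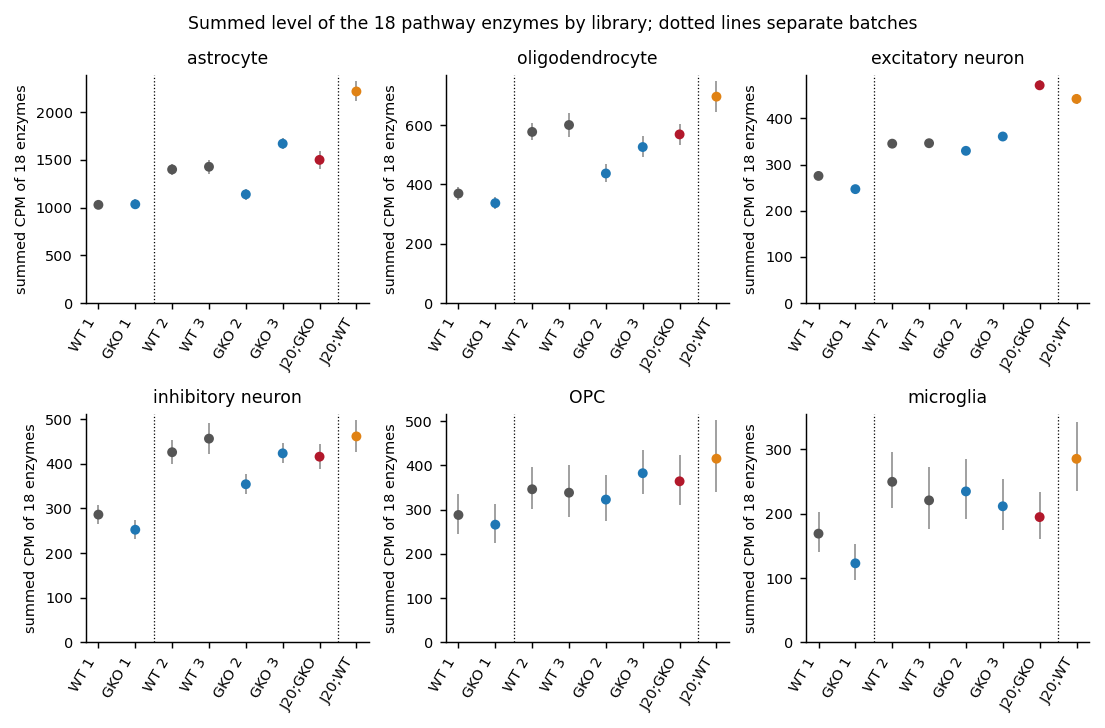
Summed CPM of the 18 pathway enzymes per library in 6 cell classes (panels), with exact Poisson 95% intervals. Dotted lines separate batch 1 (left), batch 2 and batch 3 (right), grey points are WT, blue labelled GKO, red J20;GKO and orange J20;WT. The batch 1 libraries are the lowest among the WT and GKO mice in every panel, at 1030 and 1036 CPM in astrocytes.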

How the data were processed

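Raw UMI counts per gene and nucleus were deposited by the authors as 1 matrix per mouse; they were made with Cell Ranger 3.0.2 on mm10, and the study's own steps used Seurat 3.0 in R 3.6.2. Nuclei were isolated by Dounce homogenisation and an iodixanol spin. The deposited counts were not normalized. Here nuclei with 200 to 7500 genes and at most 5% mitochondrial UMIs were kept (32041 of 33314 barcodes). Cell names were rebuilt from marker lists that hold none of the 30 genes, so they may differ from the study's; 3478 nuclei (10.85%) stayed without a class, 1407 lay near the limit and 1491 reached the limit of a second class. Scrublet called 3.448% to 6.503% doublets in 6 libraries but 1 nucleus in WT 1 and 0 in GKO 1, where it did not work, so doublets were kept and left out only as an alternative. Libraries shared 2 to 21 barcodes pairwise.

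UMIs were summed per class and library and tested with edgeR 4.0.16 in R 4.3.3 (TMM, filterByExpr, robust quasi-likelihood fit, Benjamini-Hochberg adjustment over all genes tested). DESeq2 1.42.0 was an alternative. Fold changes are on the log2 scale, and values after ± are standard errors for fold changes and SDs for levels. The genes and lists were chosen with earlier results of these data known. Genes named were the called ones, for GKO against WT the extremes and those with an unadjusted p under 0.05, and for the J20 pair the 2 highest and 2 lowest ratios per class. The p-values measure the spread between these mice, and Poisson intervals cover counting error only. Mice of the same replicate number deviated together (correlations 0.574, 0.189 and 0.224, WT against GKO), each over 0.1, which was the limit set for treating the numbers as pairs. Within batch 2 the different-numbered mice were as close (WT 3 with GKO 2 0.31, WT 2 with GKO 3 0.212), so beyond the first pair, which is batch 1, the data do not favour the numbers. Gene overlaps follow GENCODE vM21 on mm10 and promoters RefSeq. Ebp and Nsdhl are X-linked. Cyp51, Fdft1, Hmgcs1, Mvd, Lss, Srebf1 and Ggps1 overlap a gene on the other strand.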

Additional observations from a re-analysis of the deposited data

Results flagged for a closer look

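Msmo1 moved in opposite directions between cell classes in the J20 pair. On the log2 scale, J20;GKO relative to J20;WT was at 0.935 in dentate granule nuclei, and at -0.622 in CA1, -0.586 in CA3, -0.835 in inhibitory neurons, -0.90 in astrocytes and -0.519 in oligodendrocytes. In CPM, J20;WT and J20;GKO were at 47.6 and 91.0 in dentate granule nuclei, 88.0 and 57.2 in CA1, 125 and 83.0 in CA3, 88.0 and 49.3 in inhibitory neurons, 1121 and 600 in astrocytes, and 151 and 106 in oligodendrocytes. The difference between classes was not tested, since each value comes from 1 library per genotype.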

How the results depend on the processing

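No direction reversed under any setting among the called class, region and batch values, or for Insig2 in GKO against WT oligodendrocytes. For the J20 pair and the young oligodendrocytes, changes of sign were not counted. The 20 genes called higher in astrocytes stayed 20 when any 1 library was left out. Leaving out 1 library at a time gave 1 to 3 genes higher and 2 to 3 lower in excitatory neurons, 1 to 2 higher in inhibitory neurons, 3 to 6 higher and 2 to 3 lower in oligodendrocytes, 0 to 1 higher and 0 to 1 lower in OPCs, 14 to 17 lower in microglia and 6 to 8 lower in vascular nuclei. With WT and GKO libraries only, 1 gene was higher in excitatory neurons, 2 were higher in inhibitory neurons and 0 lower in OPCs. Without the mouse (replicate) block 1 was higher in excitatory neurons. With no filter on low counts 1 was lower in excitatory neurons, and without both batch 1 libraries 2 were higher in inhibitory neurons. RLE normalization and DESeq2 each gave 2 higher in oligodendrocytes, and 2 higher and 4 lower in vascular nuclei. The stricter gate gave 0 lower in OPCs and 3 genes with both J20 libraries on top in CA3. The causes of these moves were not tested.

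For GKO against WT none of the genes tested among the 30 was called under any alternative. Over all genes, the replicate block gave 2 calls in astrocytes, 7 in OPCs and 1 over all nuclei, the batch term 1 in OPCs, no filter 7 and the stricter gate 1 in vascular nuclei, and leaving out 1 library 0 to 1 in OPCs; the pairing changed no other call there. The batch comparison and the J20 values by region were added after seeing the data. Leaving out 1 library gave, for batch 2 higher, 0 to 9 genes in excitatory neurons, 0 to 7 in inhibitory neurons, 0 to 8 in astrocytes, 4 to 10 in oligodendrocytes (lower 0 to 1) and 0 to 12 over all nuclei. Of the named class values 941 of 1006 settings kept the call and 65 lost it, as did 9 of 192 for regions and 119 of 369 for batches. Depth limits the smaller classes: of the 30 genes, 9 could be tested for genotype in microglia and 2 in vascular nuclei.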
